A study of Mus musculus with 4 samples.

Results

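A set of 9 genes whose products build or mark the myelin of the central nervous system was followed across 2 mouse tissues: Mbp, Mobp, Mal, Cldn11, Mag, Mog, Opalin, Cnp and Ermn. They were chosen by name. Non-control spots were tied to symbols through the RefSeq accession in the scanner output, which gave 14 probes for the 9 genes, out of 39429 probes for 32585 genes or other identifiers. Mbp and Mobp had 3 probes each, Ermn had 2, and the other members had 1 each.

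Myelin is the stack of membrane that a glial cell wraps around an axon, and it speeds the conduction of impulses. In the spinal cord it is made by oligodendrocytes, which arise from precursor cells, and outside it by Schwann cells. Enteric glia of the gut do not form myelin. Basic proteins such as Mbp hold the inner faces of the membrane together, adhesion proteins face the axon or the outside of the sheath, and other proteins keep cytoplasmic channels through the sheath open. Schwann cells also make Mbp, Mag, Cnp and Mal.

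Total RNA of spinal cord and duodenum was labelled with Cy3 and hybridized to 4 1-colour arrays on 1 slide, with 1 array for each genotype and tissue. The mice were males aged 20 weeks, either IP6K2-KO or WT littermates, and the series addressed how loss of IP6K2, a kinase that makes inositol pyrophosphates, alters mRNA in the 2 tissues. The knockout lacks exon 6, which encodes part of the kinase domain, in every cell type. Mice of both genotypes were raised on the diet CE-2, spent 1 week on purified food (iVid-neo) and then went 48 h without food, so the fast and the diet are shared by all groups. No group had a second array, so no difference had a replicate check, no test was made, and differences between mice, between dissections and between genotypes cannot be told apart.

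A signal is the processed spot intensity of the scanner software, and a probe is called well above background by that software's own flag. Each array was centred on the log2 of its 75th percentile, and differences between arrays are of these log2 values. The percentile was 905 and 971 on the WT and labelled KO spinal cord arrays, and 68.0 and 323 on the WT and labelled KO duodenum arrays, where it differed 4.75-fold. The share of probes well above background ran from 51.6% to 77.4%, and none was saturated. The technical SD beside a difference was estimated from probes printed at 10 spots an array, and it measures spots, not mice. Ip6k2 was checked first. Its signal was 452 on the WT and 1320 on the labelled KO spinal cord array, a log2 difference of 1.45 (technical SD 0.059), and 139 and 572 in the duodenum, a difference of -0.21 (technical SD 0.082). The spinal cord value went against the label, and the files do not say whether the probe lies in the deleted exon, so the genotype is given as labelled throughout. Markers fitted the tissue labels: 10 of 10 gut epithelium genes were well above background on each duodenum array, against 4 and 3 of 10 in the spinal cord, while 10 of 10 neuronal genes were in the spinal cord and 7 and 9 of 10 on the WT and labelled KO duodenum arrays.

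Of the 9 members, 8 had a promoter window in the RefSeq table of the build GRCm38.p6, from 250 bases before to 50 bases after the annotated start. They were searched on both strands for the core letters bound by MYRF, the factor that drives myelin genes in oligodendrocytes (CTGGCAC or CTGGTAC), and by SOX factors such as SOX10 (ACAAAG or ACAATG). The MYRF letters were in 4 of 8 members (Mag, Cnp, Mog and Opalin), against 7.10% of all 32851 windows and 8.10% of the 27025 genes with a window. The SOX letters were in 5 of 8 (Mag, Cnp, Opalin, Mobp and Ermn), against 28.6% of windows and 31.7% of genes, and no match of one motif overlapped a match of the other. The GC box GGGCGG was in 2 of 8 members and 35.7% of windows, and TATAAA in 0 of 8 and 13.6% of windows. Mag has 3 annotated starts and so 3 windows, of which 2 held both motifs. These matches are descriptions of letters and not of binding.

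The 250 bases before the start are shown for Mag, Cnp and Mog because each holds a MYRF core, for Mobp because its window holds the SOX core 6 times, and for Opalin because its window holds both cores. Each is written 5′ to 3′ on the strand of the gene, and the capitals mark the MYRF and SOX letters on either strand.
Mag upstream (chr7:30914864-30915113, minus strand): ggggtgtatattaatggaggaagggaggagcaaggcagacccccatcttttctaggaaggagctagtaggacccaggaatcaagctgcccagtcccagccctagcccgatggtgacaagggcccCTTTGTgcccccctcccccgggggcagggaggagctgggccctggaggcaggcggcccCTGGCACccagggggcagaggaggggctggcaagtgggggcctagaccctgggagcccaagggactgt
Cnp upstream (chr11:100574689-100574938, plus strand): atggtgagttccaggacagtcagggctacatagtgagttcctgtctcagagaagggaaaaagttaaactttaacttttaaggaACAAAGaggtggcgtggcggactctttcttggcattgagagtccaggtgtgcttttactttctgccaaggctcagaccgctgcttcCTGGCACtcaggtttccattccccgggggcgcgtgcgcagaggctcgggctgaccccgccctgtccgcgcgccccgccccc
Mog upstream (chr17:37023399-37023648, minus strand): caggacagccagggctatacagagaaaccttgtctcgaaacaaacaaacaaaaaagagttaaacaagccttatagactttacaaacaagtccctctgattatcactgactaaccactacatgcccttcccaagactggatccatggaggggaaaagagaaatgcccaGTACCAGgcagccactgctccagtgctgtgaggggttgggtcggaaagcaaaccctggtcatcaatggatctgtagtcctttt
Mobp upstream (chr9:120149492-120149741, plus strand): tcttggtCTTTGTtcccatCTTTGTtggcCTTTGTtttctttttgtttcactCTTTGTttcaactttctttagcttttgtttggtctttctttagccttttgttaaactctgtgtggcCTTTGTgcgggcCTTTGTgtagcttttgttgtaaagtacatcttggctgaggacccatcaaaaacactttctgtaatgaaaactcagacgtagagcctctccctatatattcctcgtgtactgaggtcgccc
Opalin upstream (chr19:41077114-41077363, minus strand): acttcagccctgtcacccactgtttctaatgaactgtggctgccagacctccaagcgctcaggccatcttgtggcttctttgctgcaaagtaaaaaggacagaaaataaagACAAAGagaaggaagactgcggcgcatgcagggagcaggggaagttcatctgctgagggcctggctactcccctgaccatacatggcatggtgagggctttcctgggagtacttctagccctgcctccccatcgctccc
In the stretches shown for Mag, Cnp and Mog the MYRF core began at -68, -81 and -83 from the annotated start, on the strand of the gene in Mag and Cnp and on the other strand in Mog. In Opalin it began at 36, after the start and so past the bases shown. Mal and Cldn11 held neither core. Of the 13 other mature oligodendrocyte genes with a window, 8 held the SOX letters and 1 the MYRF letters.

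In the spinal cord, all 9 members were well above background on both arrays, and their differences between the array labelled KO and the WT array were small. Above 0 lay 7 of 9, where 41.3% of all genes were. The median member was higher by 0.17 on the log2 scale while the median gene differed by -0.037. That member median was the value of the Mbp probe that represents its gene. It was 0.035 when the probe brightest in the spinal cord stood for each gene. None reached 2-fold, which 2.28% of genes did upward and 0.864% downward. When the arrays were scaled on their spiked-in controls, which moved the median of all genes to -0.21, 3 of 9 members were above 0.

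**Figure D1:**
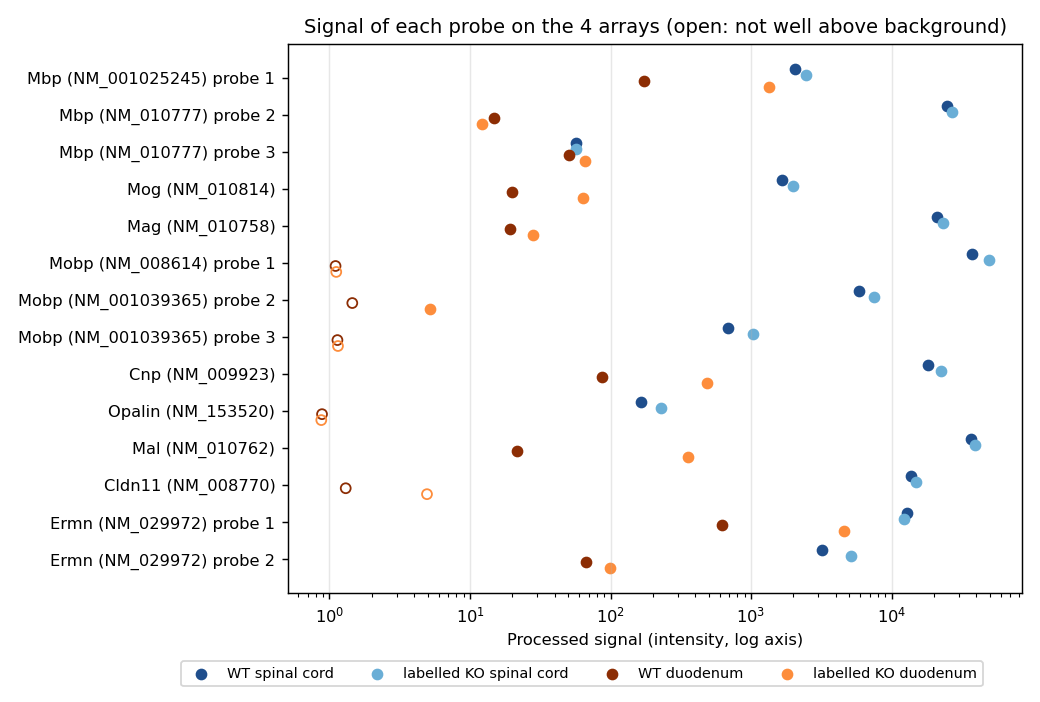
Processed signal (intensity, log axis) of each of the 14 probes on the 4 arrays, with open circles where the probe was not well above background. The spinal cord signals lie close together for every probe, and the duodenum signals lie below them for every probe but probe 3 of Mbp. The signals are not scaled between arrays. The 75th percentile was 13.3-fold lower in the duodenum than in the spinal cord in WT and 3.01-fold lower on the arrays labelled KO.

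Mbp encodes myelin basic protein, which compacts the sheath, and the same locus also gives golli transcripts from an upstream start. The probe of NM_001025245, which represents the gene here, gave a signal of 2050 on the WT and 2466 on the labelled KO spinal cord array, and 173 and 1333 in the duodenum. The second probe, of NM_010777, gave 24633 and 26948 in the spinal cord and 14.7 and 12.1 in the duodenum. The remaining probe, also of NM_010777, gave 56.4, 57.0, 50.8 and 65.4 in the same order, nearly level as unscaled signals. Relative to each array, it was higher in the duodenum than in the spinal cord, by 3.58 in WT and 1.79 on the arrays labelled KO. All 3 were well above background on all arrays, but they disagree between the tissues, and the files do not say which transcripts each binds. In the spinal cord the differences were 0.17, 0.028 and -0.088, with technical SDs of 0.057, 0.057 and 0.11, so the first exceeded 2 technical SDs and the others did not.

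Mobp, a small basic protein of compact myelin, stood higher on the labelled KO spinal cord array with each of its 3 probes. The probe of NM_008614 gave 37156 on the WT and 49358 on the labelled KO array, a log2 difference of 0.31 (technical SD 0.057). The probes of NM_001039365 gave 5889 and 7490 for one, a difference of 0.25, and 683 and 1038 for the other, a difference of 0.50. The direction for the gene was the same under all 9 alternative processings.

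Mal, a raft-associated membrane protein of myelin that is also made by epithelia, gave 36933 and 39480 in the spinal cord. Its difference was -0.0054, well within the technical SD of 0.057. Cldn11, the claudin of the tight junction strands within the sheath, gave 13656 and 14902, a difference of 0.024 that was likewise within its technical SD.

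Mag, the adhesion protein of the membrane next to the axon, gave 20962 on the WT and 23047 on the labelled KO spinal cord array, a difference of 0.035. Mog, on the outermost face of the sheath, gave 1649 and 1985, a difference of 0.17 (technical SD 0.055). Opalin, a transmembrane glycoprotein of oligodendrocytes, gave 166 and 227, a difference of 0.36 (technical SD 0.073) that turned to -0.47 under normexp background correction. Mag differed by less than its technical SD, and Mog and Opalin by more than 2 of theirs.

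Cnp encodes an enzyme that keeps the cytoplasmic channels of myelin open, and Ermn a cytoskeletal protein of oligodendrocyte processes. Cnp gave 18043 on the WT and 22525 on the labelled KO spinal cord array, a difference of 0.22 (technical SD 0.057). The Ermn probe that represents the gene gave 12967 and 12182, a difference of -0.19, the only member value lower by more than 2 technical SDs. The second Ermn probe, of the same accession, gave 3190 and 5109, a difference of 0.58. The Ermn probes therefore went opposite ways by more than their technical SDs, and no direction is given for the gene.

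**Figure D2:**
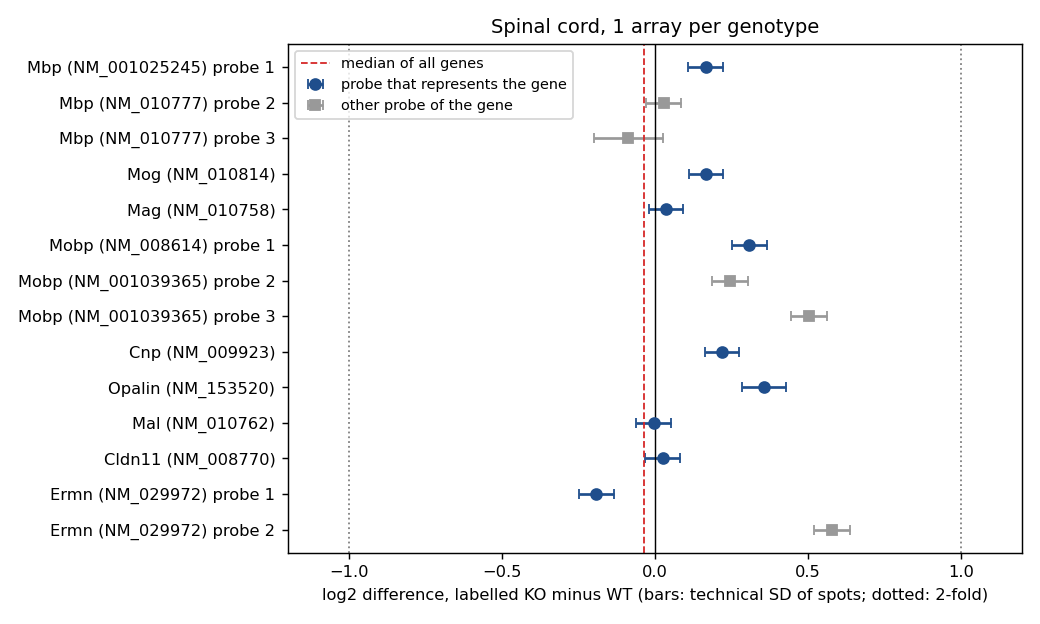
Log2 difference in the spinal cord, labelled KO minus WT, for each of the 14 probes, with bars of 1 technical SD of spots, the median of all genes (dashed) and 2-fold (dotted). No probe reached 2-fold, and the points of Ermn lie on opposite sides of 0.

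Counted against the spots, 5 of 9 members (Mbp, Mog, Mobp, Cnp and Opalin) were higher by more than 2 technical SDs, where 17.2% of all genes were. By the probe that represents Ermn alone, 1 was lower, where 24.8% were. Mbp too was counted by the probe that represents it alone, and its other probes differed by 0.028 and -0.088. Opalin turned to -0.47 under normexp, 1 of the 9 alternatives. The brightest 10% of spinal cord genes, which hold 6 of the members, had a median difference of -0.061, and 25.4% of those genes were above 0. In bulk tissue, fewer cells of a type and less RNA per cell cannot be told apart.

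No gene of the other oligodendrocyte lists reached 2-fold. Of 20 other mature oligodendrocyte genes, 15 were above 0, with a median of 0.22. Cd9, a tetraspanin, gave 3161 on the WT and 6173 on the labelled KO array, a difference of 0.86, and Car2, a carbonic anhydrase, differed by 0.62. Of 8 genes of myelin lipid synthesis, 7 were above 0, with a median of 0.39. Ugt8a, which makes galactosylceramide, differed by 0.81 and Fa2h, which hydroxylates its fatty acid, by 0.45.

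The precursor list (10 genes) had a median of 0.30 with 8 above 0, and that median was -0.037 under normexp background correction. Gpr17, a receptor of committed precursors, differed most in its list, by 0.95. The transcription factor list (11 genes) had a median of 0.04 with 9 above 0, which was -0.077 under normexp and -0.13 under spiked-in scaling. Sox10, which Schwann cells also express, differed most in its list, by 0.76. The 8 genes of the axoglial junction had a median of -0.075 and 2 above 0, the 10 neuronal genes -0.062 and 1, and the 10 astrocyte genes -0.16 and 2. Under normexp, which moved the median of all genes to -0.48, these 3 medians turned to 0.24, 0.30 and 0.15. Those of the mature oligodendrocyte and lipid lists were then 0.46 and 0.48. Normexp with flagged backgrounds replaced put the median of all genes at -0.051. The 8 microglial genes had a median of 0.08 and 5 above 0, which was -0.086 under spiked-in scaling.

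Genes of peripheral nerve, skeletal muscle and blood differed far more on the same pair of arrays. All 12 genes of peripheral myelin and Schwann cells were higher on the labelled KO array, 8 of them at least 2-fold, and their median was 1.66. Prx, a scaffold protein of myelinating Schwann cells, gave 188 on the WT and 7564 on the labelled KO array, a difference of 5.23, and Dhh, a signal that Schwann cells secrete, differed by 4.17. The summed signal of the 12 genes over the 75th percentile was 7.89 on the WT and 35.4 on the labelled KO array, and 11 and 12 of them were well above background, the exception on the WT array being Pmp2. Of 8 skeletal muscle genes 7 were at least 2-fold higher, with a median of 3.93 and a summed level of 28.0 against 89.2. Of 6 blood genes 4 were, with a median of 1.18 and a summed level of 228 against 351. The desmin gene Des, of the smooth muscle list, differed by 3.44, while the median of that list was -0.15. The part of Schwann cells, muscle and blood in the members' differences was not tested.

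**Figure D3:**
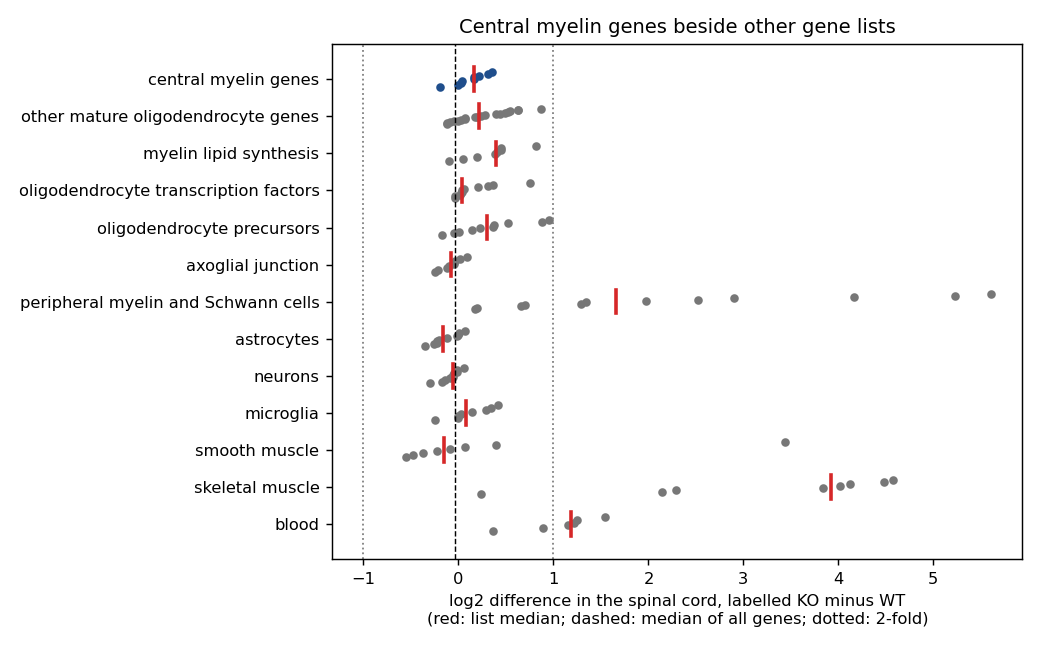
Log2 difference in the spinal cord, labelled KO minus WT, of each gene (points) in the members and 12 other lists, with list medians in red, the median of all genes dashed and 2-fold dotted. The central myelin genes lie between -0.19 and 0.36. The lists of peripheral myelin, skeletal muscle and blood reach beyond 1, as does Des of the smooth muscle list.

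In the duodenum, 6 of the 9 members had a value and 3 did not, and the 6 differed in both directions. Mal was at least 2-fold higher on the labelled KO array, where 7.2% of all genes were, and Mag at least 2-fold lower, where 11.9% were. The median of the 6 was 0.42 against -0.051 for all genes. It was -0.55 with the mean of the probes of each gene and -0.17 with the probe brightest in the spinal cord. When the arrays were scaled on spiked-in controls, which put the median of all genes at 2.78, all 6 were higher, Mag included.

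Mal gave 21.4 on the WT and 355 on the labelled KO duodenum array, a difference of 1.80 (technical SD 0.13). It was higher under all 9 alternatives, but by 0.82 under normexp background correction, with or without replaced backgrounds. It was then below 2-fold, and the member at least 2-fold higher was Ermn, at 1.11. Mag gave 19.2 and 28.1, a difference of -1.70 (technical SD 0.17), so its signal was slightly higher on the array labelled KO while the 75th percentile of that array was 4.75-fold higher. Mog, with 20.0 and 63.8, differed by -0.57 (technical SD 0.14) under the same scaling.

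Cnp gave 87.4 and 486, a difference of 0.23, and kept that direction under all 9 alternatives. The first Mbp probe differed by 0.70, but the second differed by -2.53 and the third by -1.88. The Ermn probe that represents the gene gave 625 and 4571, a difference of 0.62, and the second gave 67.1 and 99.6, a difference of -1.68. Neither gene has a direction that its probes share.

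Opalin gave 0.885 and 0.875, and Cldn11 gave 1.30 and 4.94, and neither was well above background on either duodenum array. The first Mobp probe gave 1.1 on each array and the last 1.14 and 1.15, also not well above background. The second Mobp probe gave 1.45 and 5.18, of which only the latter was well above background, and its bound on the fold was under 1. No fold is given for these 3 genes in the duodenum.

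Of the lists beside them, all 6 blood genes were at least 2-fold lower on the labelled KO duodenum array, with a median of -3.39, and the 10 neuronal genes had a median of -0.61 over the 8 with a value. The 12 Schwann genes had a median of 0.25 or higher over 5 with a value, since that median is itself the bound of Dhh. Their summed level over the 75th percentile was 19.2 on the WT and 12.1 on the labelled KO array, and their part in the members' values was not tested.

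**Figure D4:**
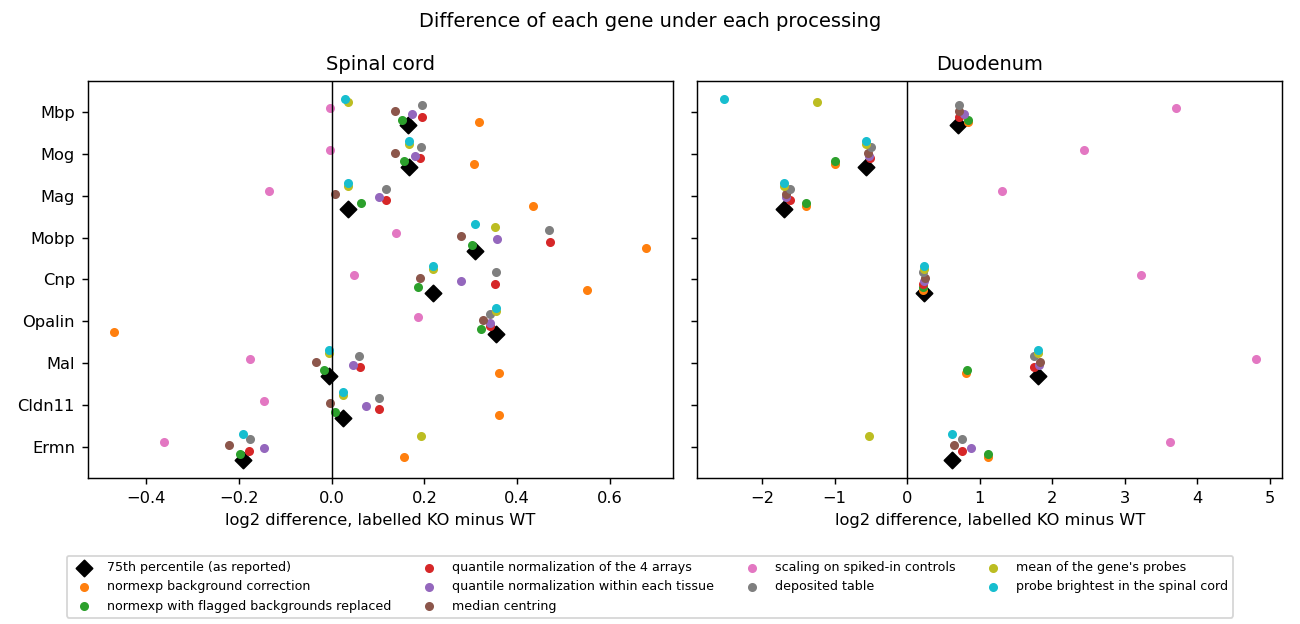
Log2 difference of each member, labelled KO minus WT, as reported (black diamonds) and under the 9 alternative processings (coloured points), for the spinal cord (left) and the duodenum (right). Mobp and Cnp stay above 0 in the spinal cord and Mal and Cnp in the duodenum, and scaling on spiked-in controls moves every duodenum point upward.

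Between the tissues, 7 of 9 members were at least 2-fold lower in the duodenum than in the spinal cord in WT, where 23.1% of all genes were, and 7 of 9 on the arrays labelled KO, where 25.4% were. None was at least 2-fold higher, against 30.2% and 30.3% of genes. The median member was at -3.95 or lower in WT and at -4.13 or lower on the arrays labelled KO, since 3 of the 9 values are bounds in each and the second median is itself the bound of Opalin. The median gene differed by 0.17 and 0.12. These comparisons use the same 4 arrays as those above. The 75th percentile was 13.3-fold lower in the WT duodenum than in the WT spinal cord and 3.01-fold lower between the arrays labelled KO, so the values are relative to each array.

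Mobp and Cldn11 were not well above background in either duodenum on the probe that represents them, so their differences are bounds. By that probe Mobp was at least 650-fold lower in WT and at least 3786-fold lower on the arrays labelled KO. The second Mobp probe was at least 103-fold lower in WT and 480-fold lower, as a measured value, on the arrays labelled KO. The last Mobp probe was at least 11.9-fold and 79.6-fold lower, so the size for Mobp depends on the probe. Cldn11 was at least 239-fold and 1002-fold lower. Opalin was at least 2.90-fold and 17.4-fold lower. Each bound was set by the lowest value well above background on the duodenum array, except that of Cldn11 on the arrays labelled KO, which was set by its own higher value.

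Mal differed by -7.02 in WT and -5.21 on the arrays labelled KO, Mag by -6.36 and -8.09, and Mog by -2.63 and -3.37. All 3 had a signal well above background in the duodenum. Cnp differed by -3.95 and -3.95, the same to 2 decimals. These 4 genes were lower in the duodenum under all 9 alternatives.

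Mbp and Ermn differed from the other members. The Mbp probe that represents the gene differed by 0.17 in WT and 0.70 on the arrays labelled KO, while the second probe differed by -6.97 and -9.53 and the third by 3.58 and 1.79. Under 8 of 9 alternatives the WT value for Mbp was below 0. The Ermn probes differed by -0.64 and -1.84 in WT, and by 0.17 and -4.09 on the arrays labelled KO. Under 7 of 9 alternatives the value for Ermn on the arrays labelled KO was below 0. For both genes, the tissue difference depends on which probe is read.

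**Figure D5:**
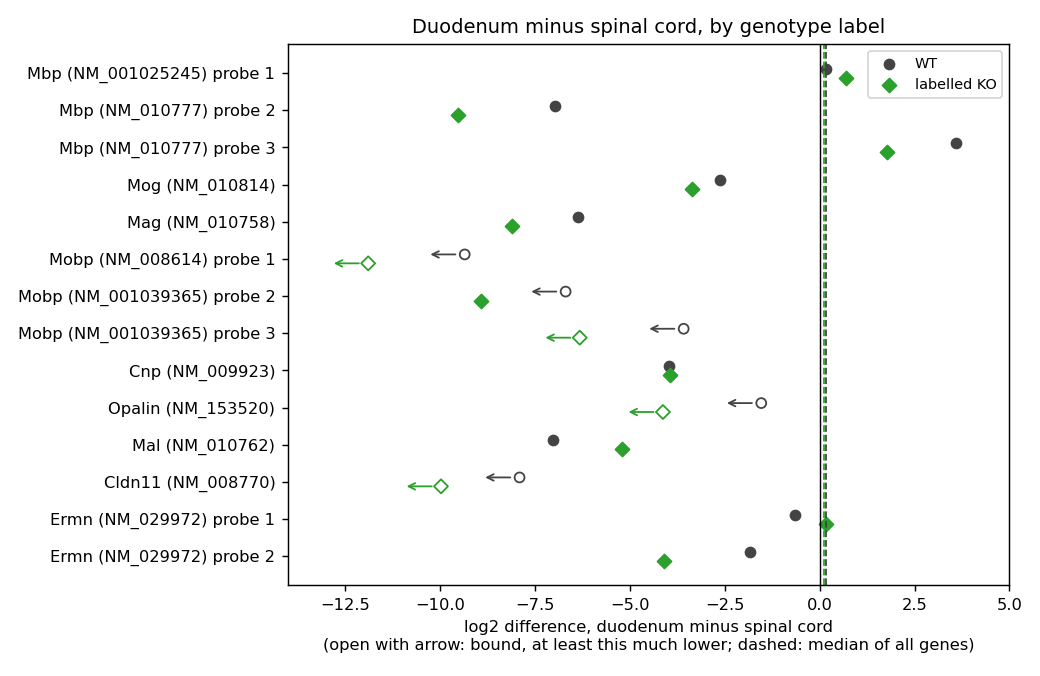
Log2 difference, duodenum minus spinal cord, for each of the 14 probes in WT (circles) and on the arrays labelled KO (diamonds), with bounds shown open with an arrow and the medians of all genes dashed. All probes other than probes 1 and 3 of Mbp and probe 1 of Ermn lie below -1 in both.

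Genes were ranked by the root mean square distance of their 4 log2 values, each centred on its own mean, over 4 arrays. The distance was taken from the mean profile of the 9 members. Between the tissues in WT the members ran from -9.34 (Mobp, a bound) to 0.17 (Mbp). A gene near their mean therefore need not resemble any 1 member. Of 16302 genes with a symbol that were well above background on both spinal cord arrays, the nearest 8 were Lrrc24 (0.057), Cabp1 (0.069), Dynlrb2 (0.085), Cadm4 (0.087), Zfp607b (0.092), Ankrd13d (0.094), Reep2 (0.094) and Ggt7 (0.096). Lrrc24 gave 1368 and 1547 on the WT and labelled KO spinal cord arrays and was not well above background, at 3.05, on the WT duodenum array. Dynlrb2 and Zfp607b were not well above background on either duodenum array, nor were 3 of the 9 members, so the distances rest in part on signals at background, and candidates were screened on the spinal cord arrays alone. With 4 arrays this is a description of these arrays.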

How the data were processed

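In all, 4 arrays were used, 1 each for WT and IP6K2-KO spinal cord and duodenum. The authors deposited scanner output (Agilent Feature Extraction 11.5.1.1, per the labels' processing notes), in which the processed intensity of a spot has the background subtracted, and a table of log2 values. That deposited log2 table, compared with the scanner output, was quantile-normalized over the 4 arrays with signals below 1 raised to 1, and it differed from the rebuilt values by at most 0.0064 over member probes well above background. Its direction and scale follow from that comparison, and it served as an alternative.

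Here log2 of the processed intensity was taken and the 75th percentile of each array subtracted (Python 3.11.15, numpy 2.4.6, pandas 2.3.3). Control spots and outlier spots were dropped and spots of a probe averaged. For each gene the probe of highest mean stood for the gene, and every other probe of a member is shown. A probe well above background on 1 array of a pair gave a bound against the lowest value well above background on the other, or the own value of the probe there if higher. The technical SD came from the 50 nearest in brightness of 399 probes spotted 10 times. Of 26391 probes with an NM accession, 25868 matched a RefSeq symbol. Alternatives were normexp (limma 3.58.1 in R 4.3.3, offset 50, on the median spot signal, since the files give no mean), normexp with flagged backgrounds replaced, quantile normalization across all arrays and within tissue, median centring, 8 spiked-in controls, the deposited table, the mean of probes, the probe brightest in the spinal cord, 1.5-fold, and filters on dim probes. The scripts were tested on simulated data. Depth does not apply to arrays, whose number limits the precision.

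The members and lists were chosen with earlier results of these data known. The text names all 9 members, Ip6k2, at most 4 genes a list (those that differed most in the spinal cord) and the 8 genes nearest the members' mean profile. Pmp2 was named afterwards, as the 1 gene of its list not well above background. Some single-gene results are not reported here. No columns of other samples were present.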

Additional observations from a re-analysis of the deposited data

Results flagged for a closer look

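The 3 values here stood out because a gene differed one way in the spinal cord and the other way in the duodenum, each beyond its technical SD, on the single array of each group. The differences between the tissues were not tested. Mog was higher on the labelled KO array in the spinal cord (0.17) and lower in the duodenum (-0.57), -0.74 apart. Ermn was lower in the spinal cord (-0.19) and higher in the duodenum (0.62), 0.81 apart, but its second probe went the opposite way in each tissue (0.58 and -1.68, so -2.25 apart). Ip6k2 was higher on the labelled KO array in the spinal cord (1.45) and lower in the duodenum (-0.21), -1.66 apart. When the arrays were scaled on spiked-in controls, the duodenum differences were 2.43 for Mog and 2.79 for Ip6k2, so both were then above 0 there. The Ip6k2 value in the duodenum was also above 0, at 0.058, under normexp background correction.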

How the results depend on the processing

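No paired analysis was possible because no group has a second array, and leaving out an array leaves no comparison. The median member difference in the spinal cord (0.17) was 0.36 under normexp, 0.15 under normexp with replaced backgrounds and -0.0046 under spiked-in scaling. It was 0.035 with the probe brightest in the spinal cord, an alternative chosen after seeing the data. In the duodenum (0.42) it was 3.43 under spiked-in scaling, -0.55 with the mean of probes and -0.17 with the brightest spinal cord probe. Spiked-in scaling moved the median of all genes to -0.21 in the spinal cord, 2.78 in the duodenum, and -4.35 and -1.65 between the tissues in WT and on the arrays labelled KO. Mag in the duodenum reversed, from -1.70 to 1.31, under that scaling. The tissue median in WT (-3.95) was -4.37 under normexp with replaced backgrounds, -4.61 and -6.59 under quantiles across the arrays and within tissue, -3.73 under median centring, -8.99 under spiked-in scaling, -5.92 in the deposited table and -6.36 with the brightest spinal cord probe. On the arrays labelled KO (-4.13) it was -3.97 under each normexp, -4.74, -6.63, -3.85, -5.99, -6.22 and -5.21 in that order of the other settings. Of the counts at 2-fold, the duodenum higher count (1) was 3 at 1.5-fold and 6 under spiked-in scaling. The lower count (1) was 3 without a filter on dim probes, 0 under spiked-in scaling, and 2 with the mean of probes or the brightest spinal cord probe. The tissue lower count (7) was 4 in each genotype when both arrays had to be well above background, and the higher count on the arrays labelled KO (0) was 1 at 1.5-fold. Of 547 values of single genes and list medians under the alternatives, 256 stayed within 1 technical SD of the reported value. The sign changed in 80, of which 23 were in the spinal cord and 38 in the duodenum, and Mag was the only 1 reported past 2-fold. Among the changes were Opalin in the spinal cord (-0.47 under normexp) and, in the duodenum, Mog (2.43 under spiked-in scaling), Mbp (-2.53 with the brightest spinal cord probe) and Ermn (-0.53 with the mean of probes). The cause was not tested.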
